A study of Mus musculus with 10 samples.

Results

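Genes that mark T cells, B cells or antibody-secreting cells were followed through RNA-seq libraries of mouse mammary gland macrophages and mammary epithelial cells (MECs). They are *Cd3d*, *Cd3e*, *Cd3g*, *Icos* and *Cd28* on the T cell side and *Cd79a*, *Cd79b*, *Ms4a1*, *Fcmr* and *Jchain* on the B cell side, 10 of the 55487 genes in the count tables, and all 10 were found by symbol. The list was drawn up with the macrophage counts of these genes already known, so their difference between the macrophage genotypes is given as a description and without a test. The question was whether these genes go up together from library to library, as they would if a number of lymphocytes had been carried along with the macrophages.

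The study deleted *Cebpb*, which encodes the transcription factor C/EBPβ, in CSF1R-expressing myeloid cells and compared the glands with those of control mice. All mice were 10-wk-old diestrus-staged females on a BALB/c background and all carried 2 floxed *Cebpb* alleles. WT mice were Csf1r-Cre negative;*Cebpb* fl/fl, and *Cebpb* ΔM mice were Csf1r-Cre positive;*Cebpb* fl/fl, a state that the sample titles record as knockdown of C/EBPb. The Csf1r-iCre transgene is active wherever the *Csf1r* promoter is, so the deletion is not limited to mammary macrophages. Macrophages were taken from collagenase-digested glands, from which the lymph nodes had been removed, with antibody to F4/80, and MECs were what remained after depletion of other lineages. There were 2 WT macrophage libraries (WT 4 and 5), 4 *Cebpb* ΔM macrophage libraries (*Cebpb* ΔM 4 to 7), 2 WT MEC libraries (WT 1 and 3) and 2 *Cebpb* ΔM MEC libraries (*Cebpb* ΔM 1 and 3). The labels do not say whether libraries came from single mice or pools, so the spread between them may be partly technical.

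T cells recognize antigen through a receptor whose signal is passed on by the CD3 chains, products of *Cd3d*, *Cd3e* and *Cd3g*, and CD28 and ICOS are costimulatory receptors that act beside it. B cells use membrane antibody together with the CD79A and CD79B chains, MS4A1 is the B cell surface protein CD20, FCMR is a receptor for the constant part of IgM, and the joining chain encoded by *Jchain* links IgA and IgM into polymers in antibody-secreting cells. Cells of a lineage make all chains of their receptor, whereas macrophages are known for the F4/80 protein (*Adgre1*), CSF1R and complement C1q.

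Of the 10 genes, 6 had a promoter in the RefSeq table used here (GRCm38.p6), namely *Cd3d*, *Cd3e*, *Cd3g*, *Fcmr*, *Jchain* and *Cd79a*, and *Icos*, *Cd28*, *Cd79b* and *Ms4a1* had none there. The 150 bases before each RefSeq start were searched on both strands for the octamer ATTTGCAT, a C/EBP motif TTGCNNAA, an Ets motif CAGGAAGT and the E box CAGCTG. The 3 windows with a match are shown because C/EBPβ is the deleted factor and Ets factors are known regulators of lymphoid genes. Capitals mark the match, which for *Cd3e* is the Ets motif read on the other strand.

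Cd3e: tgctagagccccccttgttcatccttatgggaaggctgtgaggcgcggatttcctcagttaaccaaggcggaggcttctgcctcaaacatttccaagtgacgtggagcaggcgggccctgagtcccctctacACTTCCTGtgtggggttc
Cd79a: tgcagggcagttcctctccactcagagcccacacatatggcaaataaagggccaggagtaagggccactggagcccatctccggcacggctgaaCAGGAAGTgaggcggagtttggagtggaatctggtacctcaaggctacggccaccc
Jchain: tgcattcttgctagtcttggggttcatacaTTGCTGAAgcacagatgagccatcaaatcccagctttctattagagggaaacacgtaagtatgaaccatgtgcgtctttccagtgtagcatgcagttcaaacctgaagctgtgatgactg

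The *Cd3e* window is chr9:45009612-45009761 on the minus strand, with the match beginning 18 bases before the start. The *Cd79a* window is chr7:24897347-24897496 on the plus strand, with the match 56 bases before the start. The *Jchain* window is chr5:88527898-88528047 on the minus strand, and its C/EBP match lies 120 bases before the start. Over 32851 promoter windows of this length, 1.89% held the Ets motif, 5.46% the C/EBP motif, 8.39% the E box and 0.998% the octamer. No match says only that these letters are not in the window. In the count tables *Cd3d* (chromosome 9 from 44981786 to 44987339, plus strand) and *Cd3g* (chromosome 9 from 44969572 to 44980431, minus strand) start head to head with 1354 bases between them, and *Cd3e* (chromosome 9 from 44998740 to 45009627) is close by. *Cd28* (chromosome 1 from 60716800 to 60773359) and *Icos* (chromosome 1 from 60977927 to 61000320) have 204567 bases between them.

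Total counts were 16935000 to 20174722 read pairs in the macrophage libraries and 25310926 to 27008166 in the MEC libraries. Counts of 3 in a library, taken here as the floor, equal 0.149 to 0.177 CPM (counts scaled to a common library total) in macrophages and 0.111 to 0.119 CPM in MECs. This floor and the binomial intervals below cover counting error only. The targeted gene did not separate the macrophage genotypes: *Cebpb* was counted 13 and 15 in WT 4 and 5, and 16, 13, 5 and 4 in *Cebpb* ΔM 4 to 7. *Cebpb* shares exon sequence with *Tmem189* on the other strand, which had 278 to 573 counts in these libraries. The paper reports the deletion from other material. C/EBPβ protein and *Cebpb* mRNA were not detectable in cultured bone marrow macrophages of *Cebpb* ΔM mice. Co-staining of their glands found no C/EBPβ in CSF1R+ cells. The few counts here cannot check the labels, so genotypes of macrophage libraries are given below as labeled. The preparations carried RNA of other cells, of which the epithelial part differed with the label. The summed level of 14 macrophage genes was 9674 to 10862 CPM in libraries labeled WT and 12676 to 16917 CPM in those labeled *Cebpb* ΔM, while that of 12 epithelial genes was 9776 to 10072 CPM and 5063 to 7522 CPM. Summed levels of fibroblast genes, 6820 to 7542 CPM in WT and 3131 to 7887 CPM in *Cebpb* ΔM, overlapped between the labels. Those of endothelial, adipocyte and mast cell genes overlapped as well. Conventional dendritic cell genes did not overlap, with 315 to 383 CPM in WT and 397 to 676 CPM in *Cebpb* ΔM. Nor did natural killer and innate lymphoid genes, with 315 to 404 CPM in WT and 137 to 301 CPM in *Cebpb* ΔM, a sum led by *Areg*. The part of these amounts in the differences below was not tested. In bulk RNA, fewer cells of a type and less RNA per cell cannot be told apart.

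All 10 genes together took between 9.42 and 10.5 CPM in the macrophage libraries labeled WT and between 17.7 and 26.3 CPM in those labeled *Cebpb* ΔM, against 1.35 to 3.0 CPM in MECs. For comparison, *Csf1r* alone was at 977 ± 253 CPM (SD, n = 2) in WT against 1448 ± 209 CPM (SD, n = 4) in *Cebpb* ΔM macrophages (its exons overlap those of *Hmgxb3* on the other strand). The lymphocyte genes are thus read from few read pairs, at most 214 for a gene in a library. Libraries labeled WT 4 and 5 had 5 and 3 of the 10 genes over the floor, and those labeled *Cebpb* ΔM 4 to 7 had 10, 8, 9 and 8.

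The CD3 chains, which signal for the T cell receptor, did not move as a unit. *Cd3e* was counted 16 and 25 in WT 4 and 5, and 19, 20, 20 and 34 in *Cebpb* ΔM 4 to 7. *Cd3d* was counted 12 and 0 in WT and 6, 3, 23 and 5 in *Cebpb* ΔM. *Cd3g* was counted 0 and 0 in WT and 8, 13, 0 and 0 in *Cebpb* ΔM. The 3 libraries that lead are different ones: *Cebpb* ΔM 7 for *Cd3e*, *Cebpb* ΔM 6 for *Cd3d* and *Cebpb* ΔM 5 for *Cd3g*. In all 3 genes the labeled genotypes overlapped. Mean levels were 1.28 ± 0.488 CPM (SD, n = 4) in *Cebpb* ΔM against 1.05 ± 0.262 CPM (SD, n = 2) in WT for *Cd3e*, and 0.495 ± 0.479 CPM (SD, n = 4) against 0.326 ± 0.460 CPM (SD, n = 2) for *Cd3d*. The ratio of means was 1.21 for *Cd3e* and 1.52 for *Cd3d*. For *Cd3d* it fell to 0.760 without WT 5 and rose to 3.33 without WT 4. *Cd3g* was at least 1.76-fold higher in *Cebpb* ΔM when both WT libraries are set to the floor, and this bound was 0.938 without *Cebpb* ΔM 5. Summed, the 3 chains gave 28 and 25 counts in WT and 33, 36, 43 and 39 in *Cebpb* ΔM, and the sum did not overlap between the labels although none of its parts was without overlap. *Cd3e* made up 46.5% of that sum in *Cebpb* ΔM 6 (20 of 43 counts, 95% Wilson interval 32.5 to 61.1) and 100% in WT 5 (25 of 25, 86.7 to 100). In WT 4, *Cebpb* ΔM 4 and *Cebpb* ΔM 5 the share was 57.1%, 57.6% and 55.6%, with intervals that overlapped that of *Cebpb* ΔM 6. In *Cebpb* ΔM 7 the share was 87.2% (73.3 to 94.4). *Cd3e* shares exon sequence with *Gm48719* on the other strand, which had 1 to 5 counts in the macrophage libraries.

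The costimulatory receptors had different profiles. *Icos* was counted 0 and 0 in WT 4 and 5 and 28, 11, 50 and 36 in *Cebpb* ΔM 4 to 7, without overlap between the labels. *Cd28*, also on chromosome 1, was counted 12 and 62 in WT and 51, 58, 52 and 88 in *Cebpb* ΔM, and WT 5 lay above 3 of the 4 *Cebpb* ΔM libraries in CPM. *Cd28* had its highest level in *Cebpb* ΔM 7, its second highest in WT 5 and its lowest in WT 4, as had *Cd3e*. *Icos* was at 1.71 ± 0.887 CPM (SD, n = 4) in *Cebpb* ΔM, at least 11-fold above the floor of the WT libraries, and this bound was between 9.02 and 13.4 when 1 library was left out. *Cd28* was at 3.41 ± 1.19 CPM (SD, n = 4) against 1.86 ± 1.71 CPM (SD, n = 2), a ratio of 1.83 that was 1.11 without WT 4 and 5.24 without WT 5. *Icos* took 0% of the summed counts of *Icos* and the CD3 chains in WT 4 (0 of 28, 95% Wilson interval 0 to 12.1) and in WT 5 (0 of 25, 0 to 13.3). In *Cebpb* ΔM 4 to 7 the share was 45.9% (34.0 to 58.3), 23.4% (13.6 to 37.2), 53.8% (43.7 to 63.6) and 48.0% (37.1 to 59.1). The WT share is 0 because *Icos* had no counts there, so these shares describe the values on which the gene was chosen and carry no test.

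**Figure D1:**
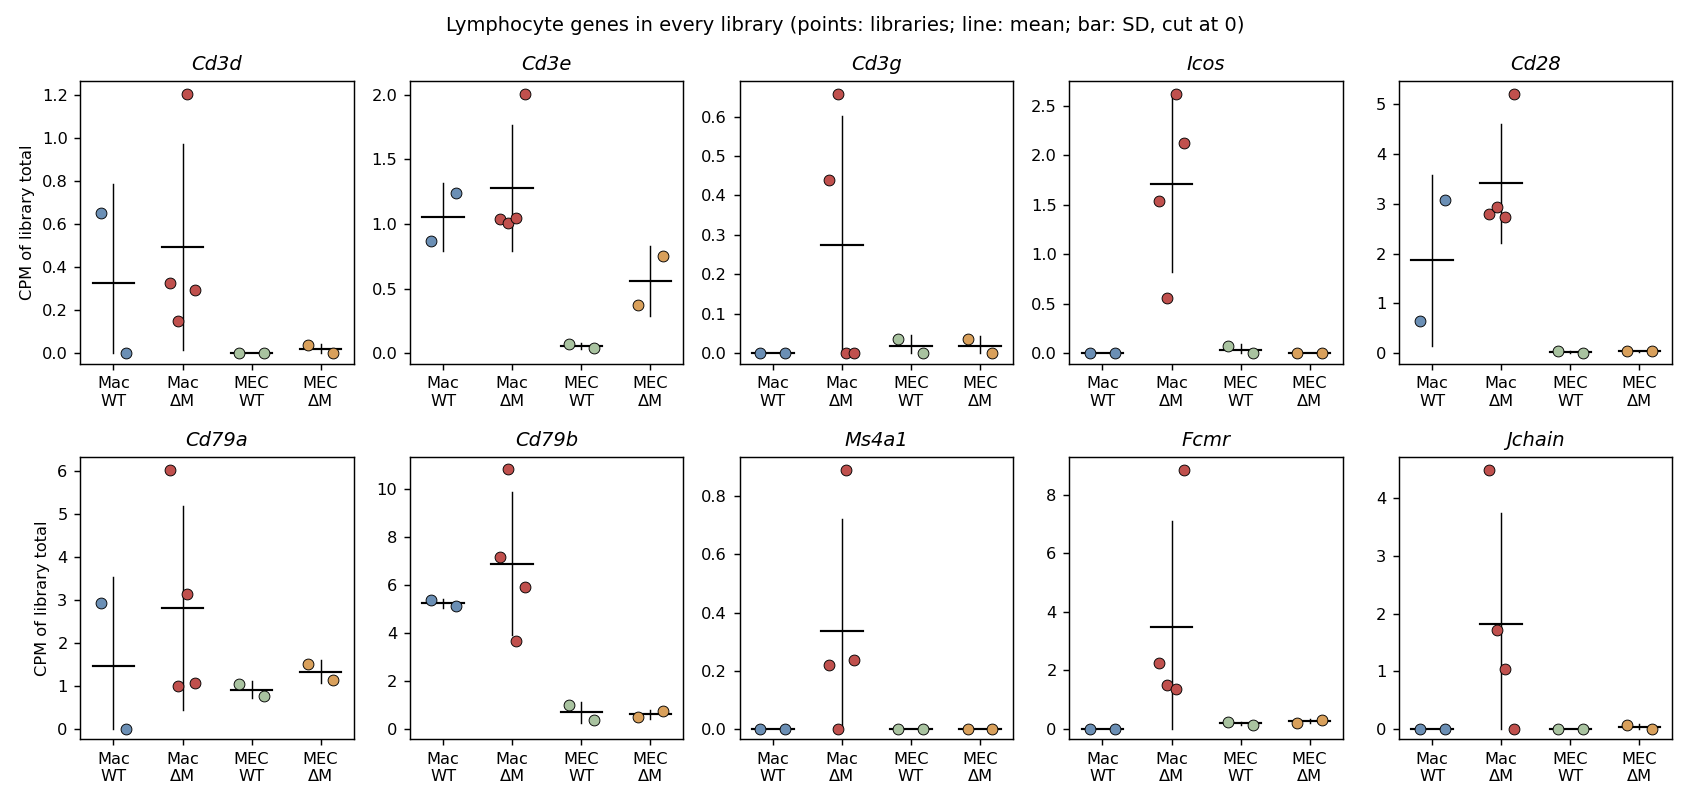
Each panel plots 1 gene's level in CPM of the library total (y axis, linear from 0) in the 4 groups (x axis: macrophages and MECs, labeled WT or *Cebpb* ΔM as ΔM). Points are libraries, horizontal lines are means and vertical bars are SD. *Icos* and *Fcmr* are at 0 in both WT macrophage libraries and above 0 in all 4 labeled *Cebpb* ΔM, while *Cd3e*, *Cd3d*, *Cd28*, *Cd79a* and *Cd79b* overlap between the labels.

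The B cell receptor partners CD79A and CD79B form a pair, but their counts did not keep a fixed ratio. *Cd79b* (chromosome 11 from 106311341 to 106314762) was counted 99 and 103 in WT 4 and 5, and 131, 214, 70 and 100 in *Cebpb* ΔM 4 to 7. *Cd79a* (chromosome 7 from 24897381 to 24902197) was counted 54 and 0 in WT and 110, 20, 60 and 18 in *Cebpb* ΔM. *Cd79b* was thus present at a like level in both WT libraries, one of which had no *Cd79a*. The mean of *Cd79b* was 6.89 ± 2.99 CPM (SD, n = 4) in *Cebpb* ΔM against 5.24 ± 0.188 CPM (SD, n = 2) for WT, a ratio of 1.32 with the WT values inside the *Cebpb* ΔM range. *Cd79a* was at 2.81 ± 2.36 CPM (SD, n = 4) against 1.46 ± 2.07 CPM (SD, n = 2), a ratio of 1.92. Leaving out WT 5 brought it to 0.959, and leaving out WT 4 made it at least 18.9. *Cd79a* made up 35.3% of the pair's counts in WT 4 (54 of 153, 95% Wilson interval 28.2 to 43.1), 45.6% in *Cebpb* ΔM 4 (39.5 to 52.0) and 46.2% in *Cebpb* ΔM 6 (37.8 to 54.7). It made up 0% in WT 5 (0 of 103, 0 to 3.60), 8.55% in *Cebpb* ΔM 5 (5.6 to 12.8) and 15.3% in *Cebpb* ΔM 7 (9.87 to 22.8). These 2 sets of intervals do not meet, and each holds libraries of both labels.

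*Ms4a1*, the CD20 gene (chromosome 19 from 11249675 to 11266241), was counted 0 and 0 in WT and 4, 0, 17 and 4 in *Cebpb* ΔM. It was over the floor in 3 of 6 macrophage libraries, and its bound of at least 2.16-fold became 0.975 without *Cebpb* ΔM 6. *Fcmr*, the IgM receptor gene (chromosome 1 from 130865669 to 130880791), was counted 0 and 0 in WT and 41, 30, 26 and 150 in *Cebpb* ΔM. *Fcmr* did not overlap between the labels and was at 3.50 ± 3.60 CPM (SD, n = 4) in *Cebpb* ΔM, at least 22.4-fold above the WT floor and at least 11-fold without *Cebpb* ΔM 7. As a share of the counts of *Fcmr* and *Cd79b* it was 0% in both WT libraries (0 of 99 and 0 of 103, 95% Wilson upper bounds 3.74 and 3.60). In *Cebpb* ΔM 4 to 7 it was 23.8% (18.1 to 30.7), 12.3% (8.75 to 17.0), 27.1% (19.2 to 36.7) and 60.0% (53.8 to 65.9). As for *Icos*, these shares describe the values on which the gene was chosen and carry no test between the labels. In *Cebpb* ΔM 7, the library with the most *Fcmr*, *Cd79a* was at 18 counts and *Jchain* at 0.

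*Jchain* (chromosome 5 from 88519809 to 88527891) was counted 0 and 0 in WT and 82, 34, 20 and 0 in *Cebpb* ΔM 4 to 7, so 1 library labeled *Cebpb* ΔM was as low as WT. Its mean was 1.81 ± 1.92 CPM (SD, n = 4), at least 11.7-fold above the WT floor and at least 5.92-fold without *Cebpb* ΔM 4.

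**Figure D2:**
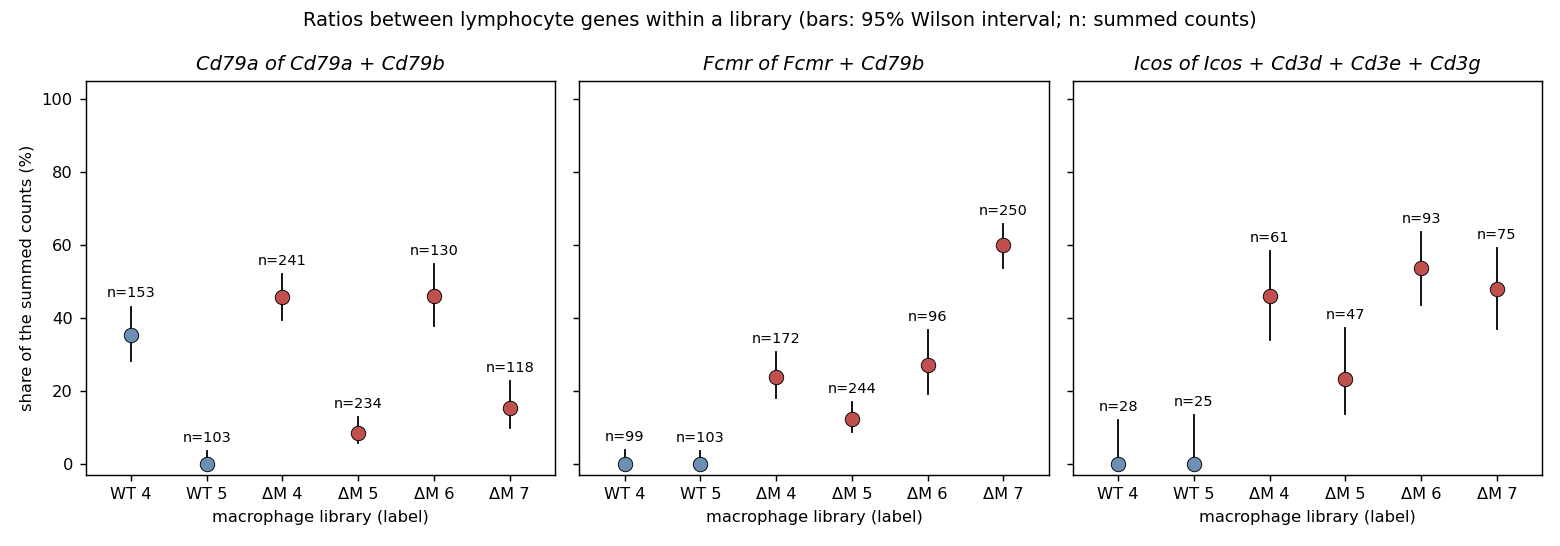
Share of 1 gene in the summed counts of the genes named above each panel (y axis, percent) in the 6 macrophage libraries (x axis, by label). Points are shares, bars are 95% Wilson intervals and n is the summed count. *Cd79a* is at most 15.3% of the *Cd79* pair in WT 5, *Cebpb* ΔM 5 and *Cebpb* ΔM 7 and at least 35.3% in the other 3 libraries, and *Fcmr* and *Icos* are at 0 in both WT libraries.

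Set side by side, 2 of the 10 genes, *Icos* and *Fcmr*, were higher in every library labeled *Cebpb* ΔM than in either labeled WT, and 0 were lower in every one. Over all 17772 genes tested in macrophages, 8.47% were higher without overlap and 10.3% lower. As the genes were chosen on this contrast, nothing is read from that comparison. Of the 10 genes, 7 passed the filter of over 1 CPM in at least 2 libraries, and *Icos*, *Fcmr* and *Jchain* passed only through the libraries labeled *Cebpb* ΔM. *Cd3d*, *Cd3g* and *Ms4a1* did not pass. Among the 4 libraries labeled *Cebpb* ΔM, the highest value of a gene fell in *Cebpb* ΔM 4 for *Cd79a* and *Jchain*, in *Cebpb* ΔM 5 for *Cd3g* and *Cd79b*, in *Cebpb* ΔM 6 for *Cd3d*, *Icos* and *Ms4a1*, and in *Cebpb* ΔM 7 for *Cd3e*, *Cd28* and *Fcmr*. *Cebpb* ΔM 4 thus led for B cell side genes, and each of the other 3 for genes of both sides. Within these 4 libraries the highest level exceeded the lowest by 1.91-fold for *Cd28*, 1.99-fold for *Cd3e*, 2.95-fold for *Cd79b*, 4.71-fold for *Icos*, 5.96-fold for *Cd79a*, 6.50-fold for *Fcmr* and 7.94-fold for *Cd3d*, and the lowest was 0 for *Cd3g*, *Ms4a1* and *Jchain*. As sums, the T cell side gave 2.17 and 4.31 CPM in WT 4 and 5 and 5.31 to 9.63 CPM in *Cebpb* ΔM, and the B cell side gave 8.30 and 5.11 CPM in WT and 10.1 to 20.2 CPM in *Cebpb* ΔM. The sums did not overlap between the labels, although 8 of the 10 genes in them did.

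**Figure D3:**
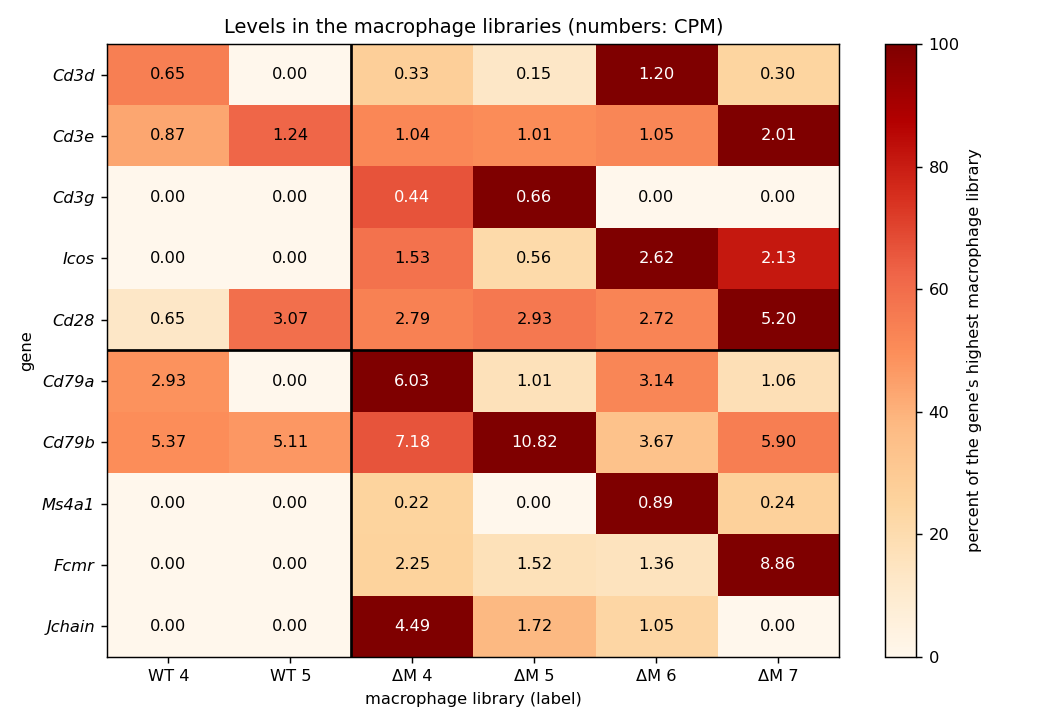
Levels of the 10 genes (rows) in the 6 macrophage libraries (columns, by label). Numbers are CPM and the color gives the percent of the gene's highest macrophage library, from 0 to 100. The darkest cell of each gene falls in *Cebpb* ΔM 4, 5, 6 or 7 in turn, for 2, 2, 3 and 3 genes.

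Compared per kilobase of gene length (RPKM), the order of levels in the libraries labeled *Cebpb* ΔM was *Cd79b* at 4.82 ± 2.09, *Fcmr* at 2.01 ± 2.07, *Cd79a* at 1.93 ± 1.62, *Jchain* at 0.721 ± 0.763, *Cd28* at 0.557 ± 0.195, *Icos* at 0.498 ± 0.259, *Cd3e* at 0.313 ± 0.119, *Cd3d* at 0.273 ± 0.264, *Cd3g* at 0.0838 ± 0.101 and *Ms4a1* at 0.0544 ± 0.0622 RPKM (SD, n = 4). Neighbors in that order differed by less than the larger of their SDs, except *Cd79b* and *Fcmr*, whose difference was larger than either SD. In the libraries labeled WT the order was *Cd79b* at 3.66 ± 0.132, *Cd79a* at 1.01 ± 1.42, *Cd28* at 0.304 ± 0.280, *Cd3e* at 0.258 ± 0.0643 and *Cd3d* at 0.179 ± 0.254 RPKM (SD, n = 2), and the other 5 genes were at 0. There, too, the first step alone exceeded the SDs. *Ms4a1* was the lowest of the 10 genes per length in *Cebpb* ΔM and shared the value of 0 with *Fcmr* and *Jchain* among the B cell side genes in WT.

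To set the members beside the rest of their programs, lists of 35 other T cell genes and 22 other B cell genes were examined. Of the 35 T cell genes, 19 were tested, 13 with a positive and 6 with a negative log2 fold change of *Cebpb* ΔM over WT, and their median was 0.67 against 0.00 for all 17772 genes. edgeR's quasi-likelihood (QL) test called 0 of the 19 and 0% of all genes in either direction, while 4 of the 19 and 8.63% of all genes had an unadjusted P under 0.05. edgeR's likelihood ratio test and DESeq2 also called 0 of the 19. Of the tested genes, 4 (*Cd4*, *Cd2*, *Ccr7* and *Trbc2*) were higher in *Cebpb* ΔM without overlap and 1 (*Gata3*) was lower, against 8.47% and 10.3% of all genes tested. *Ccr7* is on the list of conventional dendritic cell genes read below, too. *Cd5* (0 and 0 counts in WT and 19, 7, 4 and 5 in *Cebpb* ΔM) and *Lef1* (1 and 3, then 9, 13, 15 and 8) were also higher without overlap but did not pass the filter. The share of such genes among all that did not pass was not counted, so nothing is read from them. *Cd4*, the coreceptor of helper T cells, was counted 33 and 53 in WT and 201, 245, 119 and 56 in *Cebpb* ΔM. *Zap70*, a kinase of T cell receptor signaling, was low, with 0 and 26 counts in WT and 16, 14, 9 and 10 in *Cebpb* ΔM. *Cd8a* was at 0 in both WT libraries and at 6, 0, 0 and 1 counts in *Cebpb* ΔM. Its partner chain gene *Cd8b1* went the other way, with 26 and 0 counts in WT and 2, 0, 0 and 0 in *Cebpb* ΔM. *Ubash3a* was at 0 in all 6. The α chain constant gene *Trac* had 5 and 32 counts in WT and 8, 12, 14 and 5 in *Cebpb* ΔM, with 0 to 6 counts over 128 *Trav* segments in a library. The library with the most *Trac*, WT 5, had 0 counts of *Cd3d*, *Cd3g* and *Icos*, but the second highest level of *Cd3e* and *Cd28* and the highest count of *Zap70* among the 6 macrophage libraries. The list's summed level, 605 to 611 CPM in WT and 265 to 569 CPM in *Cebpb* ΔM, was mostly *Gata3*, a transcription factor that luminal epithelium also expresses, with *Thy1* and *Foxp3* next.

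Of the 22 other B cell genes, 14 were tested, 11 with a positive and 3 with a negative log2 fold change, with a median of 0.82. Of these 14, 6 (*Blnk*, *Cd37*, *Cd72*, *Cxcr5*, *H2-Ob* and *Tnfrsf13c*) were higher in *Cebpb* ΔM without overlap and 0 were lower. The shares of all genes tested were 8.47% and 10.3%. *Cxcr5* had both WT libraries at or under the floor. Of 4 tested immunoglobulin constant genes, 2 (*Ighd* and *Ighm*) were higher without overlap and 0 lower. With 4 tested immunoglobulin constant genes added, the QL test called 0 of 18, of which 8 had an unadjusted P under 0.05, the likelihood ratio test called 1 (*Blnk*) and DESeq2 called 4 (*Blnk*, *Cd37*, *Ighm* and *Tnfrsf13c*), where these tests called 0.625% and 0.929% of all genes as higher and 0.152% and 0.203% as lower. *Blnk*, an adaptor of the B cell receptor that macrophages also make, was counted 618 and 627 in WT and 1244, 1346, 1016 and 1263 in *Cebpb* ΔM, a log2 fold change of 1.07 (SE 0.19, QL adjusted P = 0.452). *Pax5*, a B lineage transcription factor, was counted 0 and 0 in WT and 10, 0, 0 and 0 in *Cebpb* ΔM. *Vpreb3* did not exceed 3 counts in any macrophage library. *Cr2* and *Pou2af1*, counted 30 and 29 in *Cebpb* ΔM 4, were at 0 in both WT libraries and at 2 and 0 counts in *Cebpb* ΔM 6. In *Cebpb* ΔM 4 alone 21 of the 22 genes were over the floor, against 12 in each WT library and 15 in each of the other 3. The summed level of the list, 562 to 579 CPM in WT and 635 to 709 CPM in *Cebpb* ΔM, was led by *Cd24a* and *Ebf1*, whose levels overlapped between the labels, and *Cd37*.

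Antibody genes gave a further set of values beside the members. *Ighm*, the constant gene of IgM heavy chain (chromosome 12 from 113418558 to 113422730), was counted 3287 and 3727 in WT 4 and 5 and 5227, 5292, 6028 and 6774 in *Cebpb* ΔM 4 to 7, but only 3 to 17 in MECs. It was at 317 ± 58.5 CPM (SD, n = 4) in *Cebpb* ΔM against 182 ± 4.52 CPM (SD, n = 2) for WT, a log2 fold change of 0.85 (SE 0.22, QL adjusted P = 0.452). All 185 *Ighv* segments together had 0 and 1 counts in WT and 12, 3, 10 and 0 in *Cebpb* ΔM, at most 0.230 per 100 counts of *Ighm*, while the 4 *Ighj* segments had 27 and 52 and then 53, 54, 101 and 84. Light chain constant genes summed to 19 and 10 counts in WT and 160, 175, 51 and 10 in *Cebpb* ΔM, with 40.6 to 100 counts of light chain V segments per 100. *Ighm* was thus highest in *Cebpb* ΔM 7, where light chains were as low as in WT 5. The reads are from BALB/c mice and were counted on the C57BL/6 reference, and its part in the V segment counts was not tested.

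The light chains differed between libraries in kind as well as amount. In *Cebpb* ΔM 4, *Igkc* made up 95.6% of light chain constant counts (153 of 160, 95% Wilson interval 91.2 to 97.9), and 47 of its 62 *Igkv* counts were on *Igkv1-110*. In *Cebpb* ΔM 5, *Igkc* made up 8.0% (14 of 175, 4.83 to 13), with 161 counts on *Iglc1* and 84 on *Iglv1*. *Igha*, the constant gene of IgA, was counted 0 and 0 in WT and 224, 157, 0 and 3 in *Cebpb* ΔM, which are the libraries where *Jchain* was at 82, 34, 20 and 0. *Jchain* was therefore highest in the 2 libraries with *Igha* over the floor, but *Cebpb* ΔM 6 had 20 *Jchain* counts with 0 of *Igha* and 12 of *Ighg1*. *Mzb1*, another gene of antibody-secreting cells, had 0 to 6 counts in every macrophage library. Of a list of 10 such genes 8 were tested. Their median log2 fold change was 0.79, with 0 called by the QL test (4 with an unadjusted P under 0.05), 0 by the likelihood ratio test and 1, *Prdm1*, by DESeq2.

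**Figure D4:**
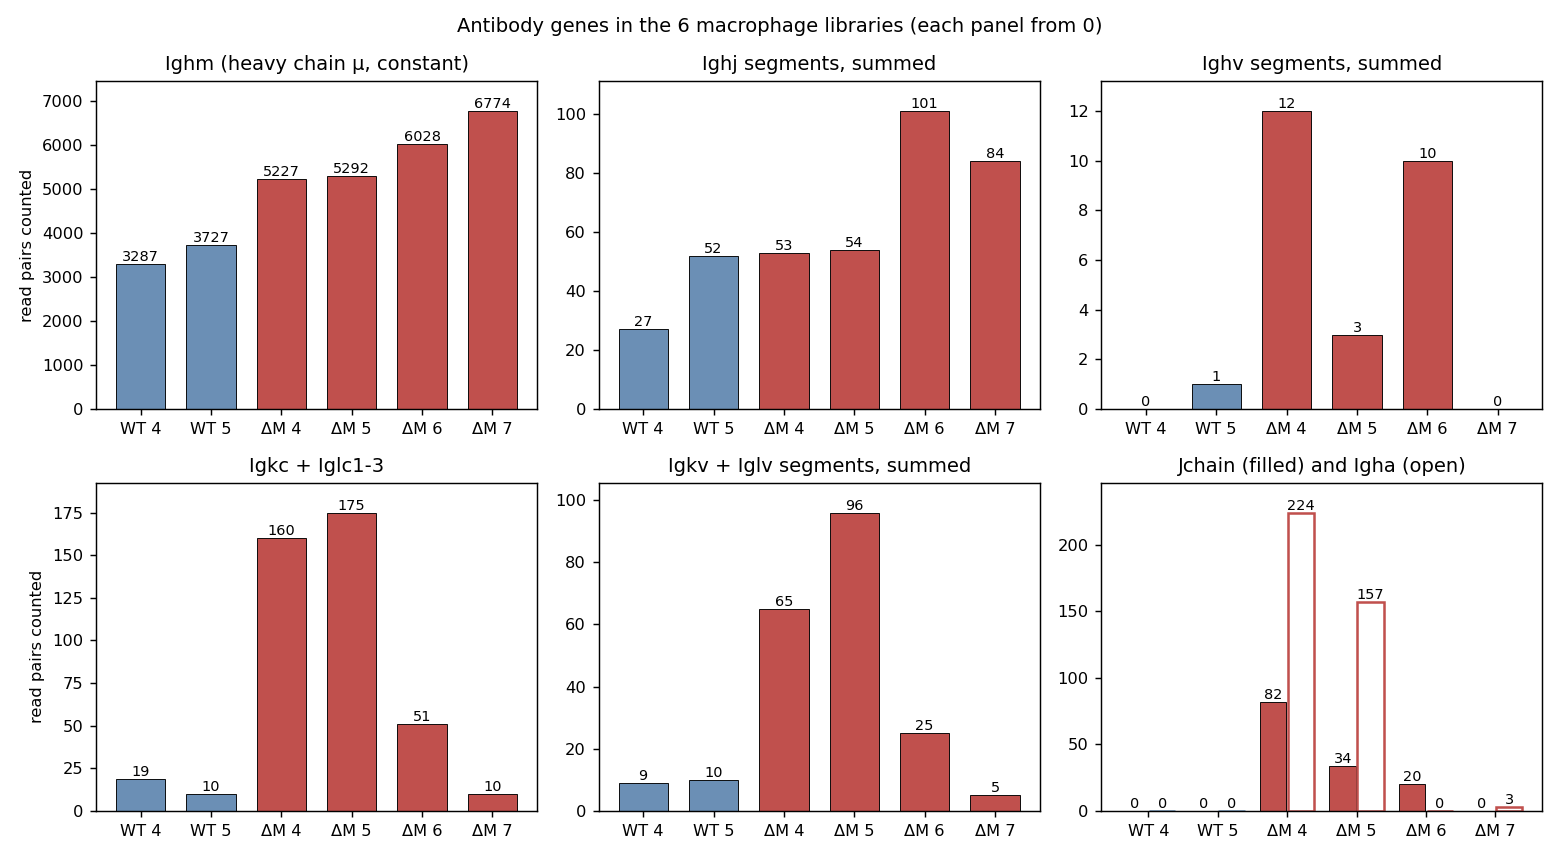
Read pairs counted (y axis, each panel from 0) on antibody genes in the 6 macrophage libraries (x axis, by label; blue WT, red *Cebpb* ΔM). *Ighm* has 3287 to 6774 counts and *Ighv* segments at most 12 in a library, whereas the light chains, *Jchain* and *Igha* are concentrated in *Cebpb* ΔM 4 and 5.

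Neighboring immune lists were read in the same way. The median log2 fold change was 0.20 over 8 natural killer and innate lymphoid genes, 0.25 over 11 plasmacytoid dendritic cell genes, 0.18 over 10 conventional dendritic cell genes and 0.55 over 14 macrophage genes, all 14 of which were positive. The QL test called 0 genes of these lists. It also called 0 of 11 T cell receptor signaling genes (median 0.41) and 0 of 10 B cell receptor signaling genes (median 0.57), lists that hold *Ptprc*, *Lyn* and *Syk*, which macrophages use as well. Unadjusted P was under 0.05 for 2, 2, 2, 7, 2 and 5 genes of these 6 lists in that order. The likelihood ratio test called 1 gene each in the natural killer (*Cxcr6*), plasmacytoid (*Siglech*), macrophage (*C1qc*) and B cell signaling (*Blnk*) lists, and DESeq2 added *Tlr7* and *C1qa*. Lymph nodes had been cut out of the glands: of 6 genes of lymph node stroma and vessels, *Ccl21a* was at 0 in all macrophage libraries, and the summed level was 6.29 to 10.5 CPM in WT and 6.52 to 9.95 CPM in *Cebpb* ΔM. Of the 3 tested, 2 had a positive and 1 a negative log2 fold change (median 0.51), and 1 had an unadjusted P under 0.05. *Glycam1*, at 0 in WT and 0.059 to 3.35 CPM in *Cebpb* ΔM, was higher without overlap, as were 8.47% of all genes. Its lowest *Cebpb* ΔM level was under the floor. Of lists for other cells, medians were -0.20 for 11 epithelial, -0.31 for 6 fibroblast, 0.04 for 6 endothelial, -0.16 for 3 adipocyte, -0.04 for 6 mast cell, 0.39 for 2 neutrophil and 0.32 for 5 erythroid genes. Of these lists the likelihood ratio test and DESeq2 each called 2 genes, Krt8 and Krt18, both lower in *Cebpb* ΔM. In every list where a gene had both WT libraries at or below the floor, the median was the same with that gene set to its bound.

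**Figure D5:**
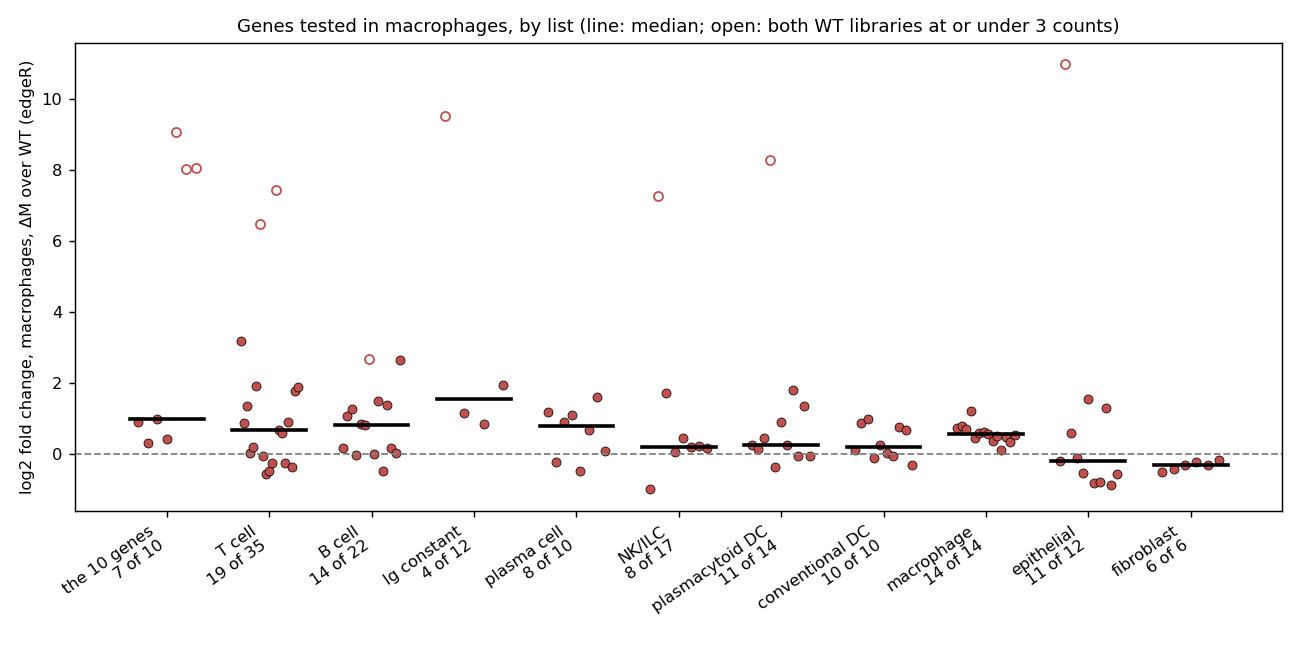
Log2 fold change of macrophage libraries labeled *Cebpb* ΔM over those labeled WT (y axis) for each tested gene of a list (x axis, with the number tested of the number listed). Lines are medians, the dashed line is the median of all genes tested, and open points are genes with both WT libraries at or under 3 counts, whose fitted values depend on the prior count. All immune lists shown have positive medians, those of natural killer, innate lymphoid and dendritic cells and macrophages as well as the lymphocyte and antibody lists. Epithelial and fibroblast lists have negative ones.

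By the difference in their centered log2 CPM profile over the 6 macrophage libraries, the genes nearest to the mean of the CD3 chains were *2300009A05Rik*, *Myl4*, *Fam181b*, *Gm12751* and *Zdhhc21*, with mean absolute differences of 0.05 to 0.10 against a median of 0.50 over 17765 genes. Nearest to *Cd79a*, *Cd79b* and *Ms4a1* were *Zfp472*, *Gm44834*, *Gm9968*, *2810408I11Rik* and *Socs5*, at 0.18 to 0.26 against a median of 0.78. None of these 10 is on the T or B cell lists. The points share libraries and depth, so this is a description.

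MEC libraries gave readings of the same genes that had no part in choosing them. *Cd79a* was counted 28 and 20 in WT 1 and 3 and 41 and 29 in *Cebpb* ΔM 1 and 3, or 0.911 ± 0.200 CPM (SD, n = 2) against 1.33 ± 0.263 CPM (SD, n = 2). It was higher in both *Cebpb* ΔM libraries, as were 17.5% of all 15698 genes tested, and its log2 fold change was 0.54 (SE 0.49, QL adjusted P = 1.0). *Cd79a* was the 1 member tested in MECs. It was called by none of the 3 tests, where the QL test called 0.0446% of genes as higher and 0.00637% as lower, the likelihood ratio test 0.924% and DESeq2 0.835% as higher, and 5.42% had an unadjusted P under 0.05. Of the counts of *Cd79a* and *Cd79b*, *Cd79a* made up 50.9% to 75.9% in MEC libraries, above all 6 macrophage shares. *Cd3e* was counted 2 and 1 in WT and 10 and 19 in *Cebpb* ΔM and did not pass the filter. *Fcmr* had 4 to 8 counts and *Cd79b* 10 to 27 in each MEC library, with overlap between genotypes. *Cd3d*, *Cd3g*, *Icos*, *Cd28*, *Jchain* and *Ms4a1* were at 0 to 2 counts in every MEC library. *Trbc2* and *Trdc*, constant genes of the T cell receptor, were counted more in MECs than in macrophages. *Trbc2* was counted 171 to 244 and *Trdc* 145 to 221 in MECs, against 1 to 32 and 0 to 20 in macrophages. *Trdc* shares exon sequence with *Gm43434* on the other strand, which had 38 to 79 counts in MECs.

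WT macrophages were compared with WT MECs in a fit over all 10 libraries. Cell type and preparation cannot be told apart in it, and it shares the WT macrophage libraries with the contrast on which the genes were chosen. The QL test called 3 of the 7 tested members as higher in macrophages, where it called 14.8% of all 18323 genes as higher and 10.7% as lower. The same 3 were higher and *Fcmr* was lower without overlap, as were 40.8% and 24.2% of all genes. *Cd79b* had a log2 fold change of 2.71 (SE 0.59, adjusted P = 0.00682), *Cd28* of 6.10 (SE 1.15, adjusted P = 0.00299) and *Cd3e* of 3.91 (SE 0.94, adjusted P = 0.0110). *Cd28*, *Cd3e*, *Icos*, *Fcmr* and *Jchain* had passed the filter only through macrophage libraries, those labeled *Cebpb* ΔM among them. The filter thus favored genes high in macrophages, so no weight is put on the direction of *Cd28* and *Cd3e*. It did not fix the direction between WT libraries, as *Fcmr* was lower. Without MEC WT 3, *Cd79b* was no longer called (adjusted P = 0.0671), and *Cd3e* was not called without MEC WT 1 (adjusted P = 0.0584) or without MEC WT 3 (adjusted P = 0.0972). *Fcmr*, at 0 in both WT macrophage libraries and 6 and 4 counts in WT MECs, was at -5.17 (SE 1.98, adjusted P = 0.0833), a fitted value that depends on the prior count, and the likelihood ratio test called it as lower (adjusted P = 0.0245). *Cd79a* had a log2 fold change of 0.47 (SE 1.33, adjusted P = 0.830), and it was called as lower, at -7.40, without macrophage WT 4 (adjusted P = 0.0393). Of the other lymphocyte genes, 5 of 20 tested T cell genes were called as higher in macrophages (*Cd2*, *Cd4*, *Il7r*, *Thy1* and *Ccr7*) and 3 as lower (*Trbc2*, *Trdc* and *Bcl11b*). Of 14 tested B cell genes 7 were called as higher (*Ebf1*, *Bank1*, *Blnk*, *Cd72*, *Cd37*, *Pou2f2* and *H2-Ob*) and 1, *Cd24a*, as lower. *Ighm* had a log2 fold change of 10.39 (SE 0.57, adjusted P = 8.66e-07).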

How the data were processed

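MECs and F4/80-selected macrophages gave 10 low-input RNA-seq libraries. The authors trimmed the reads with Trimmomatic, mapped them to GRCm38 with HISAT2 and counted read pairs on Ensembl release 100 genes with featureCounts (version 1.6.2, mapping quality of at least 10, reverse-stranded). Whether the kit marked strand is not given in the sources used here, so antisense overlaps of exons are named for the members and *Cebpb*. The deposited values are raw counts per gene. Of 55487 genes, 55141 had a symbol in the mouse gene name table used here.

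Genes of at least 300 nt with over 1 CPM in 2 or more libraries were tested: 17772 in macrophages, 15698 in MECs and 18323 over both. edgeR (version 4.0.16; R version 4.3.3) with TMM and the QL test was used in place of the likelihood ratio test that the paper names, which was an alternative, as was DESeq2 (version 1.42.0). P-values were Benjamini–Hochberg adjusted over all genes, with a threshold of 0.05, and measure only the spread between these libraries. On simulated macrophage counts (17772 genes) the QL test recovered 61% of 4-fold and 78% of 8-fold changes.

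The members and lists were chosen with earlier results of these data known. The rule for named genes took all members, the called genes (5 of smallest P if over 8) and the 3 of highest mean CPM of each list, the 5 nearest to each receptor's profile, and *Cebpb*, of which those that bear on the members are printed. Other named genes, such as *Pax5*, *Trac* and the V segments, were singled out after their values were seen. CPM in the text is per library total. Folds against libraries at 0 use a floor of 3 counts per WT library. Alternatives also covered the normalization, the filter, a block on replicate number and leaving out libraries in turn. Tables were handled with pandas (version 2.3.3), intervals with scipy (version 1.17.1) and plots with matplotlib (version 3.10.9).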

Additional observations from a re-analysis of the deposited data

Results flagged for a closer look

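In 28 groups of 4 values, each the level of a member or the summed level of a list in the macrophage libraries labeled *Cebpb* ΔM, the highest or lowest library was set against the other 3. In 4 of them the gap to the nearest library, divided by the whole range, exceeded Dixon's 95% limit for 4 values, and chance alone gives about 1 in 20. *Cd3d* was at 1.2 CPM in *Cebpb* ΔM 6 and 0.152 to 0.329 CPM in the others. *Cd3e* was at 2.01 CPM in *Cebpb* ΔM 7 and 1.01 to 1.05 CPM in the others. *Cd28* was at 5.20 CPM in *Cebpb* ΔM 7 and 2.72 to 2.93 CPM in the others. *Fcmr* was at 8.86 CPM in *Cebpb* ΔM 7 and 1.36 to 2.25 CPM in the others. All 4 stood apart upward, 3 of them in *Cebpb* ΔM 7, which had the smallest total of the macrophage libraries.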

How the results depend on the processing

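For genotype in macrophages, the QL test called 0 genes (1534 with an unadjusted P under 0.05), the likelihood ratio test 138 and DESeq2 201, and leaving out each library gave 0 to 0. Among the other T cell genes the count was 0 in every setting run, and among the other B cell genes it was 0 except with the likelihood ratio test (1) and DESeq2 (4). For genotype in MECs, the QL test called 8 genes, which became 38 without the filter, 161 by DESeq2 and 179 by the likelihood ratio test. Leaving out a MEC library gave 2 (without WT 3) to 337 (without *Cebpb* ΔM 3). Where this left 1 library in a group, it was assumed to vary like the others. For WT macrophages against WT MECs, 4664 genes were called, and 2456 (without MEC WT 3) to 4846 with 1 library left out. The members called there were 3, with 3 to 4 when 1 *Cebpb* ΔM macrophage library was left out. Fewer were called when either WT MEC library was left out, which left 1 library in that group. Of the 3 members called, *Cd28* and *Cd3e* had passed the filter only through macrophage libraries, so their direction carries no weight. In WT libraries alone only *Cd79a* and *Cd79b* passed the filter, and 1 of these 2 was called. The log2 fold change of *Cd79a* there, 0.47, ranged from -7.40 without macrophage WT 4 to 1.52 without macrophage WT 5. In macrophages, the log2 fold change of *Cd79a* was 0.99, and it was -0.01 without WT 5 and 8.71 without WT 4, where the remaining WT library had no counts. That of *Cd28* was 0.90, with 0.17 without WT 4 and 2.45 without WT 5, and that of *Cd3e* was 0.32 and -0.01 without *Cebpb* ΔM 7. Same-numbered libraries had correlations of 0.125 and -0.0853 between the macrophage genotypes and 0.105 in MECs, so the numbers were not taken to pair them. With the replicate block the calls were 12 in macrophages and 205 in MECs, and the log2 fold change of *Cd79a* in macrophages was 2.42. Of all values for single members under these alternatives, some of them listed above, 211 moved by less than the spread or stayed on their side of the threshold. The rest moved by more, crossed the threshold or changed sign. The cause of these changes was not tested. Depth limits a member at 0 to the floor of 3 counts.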
